A study of Mus musculus with 10 samples.

Results

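The 8 libraries from the colorectum of mice given dextran sodium sulfate (DSS) were compared, as 1 pool, with the 2 libraries from untreated mice, out of 10 libraries in the series. The pool is made of the libraries titled NC-miR_2d, NC-miR_4d, 29a_4d and 29b_4d, 2 of each, and the other 2 are titled normal. Libraries entered the pool by their titles. All mice were BALB/c and 7 weeks old. NC-miR_2d mice were given 2% DSS with NC-miR, a control miRNA, and the rectum was sampled on day 2. NC-miR_4d mice had the same treatment and were sampled on day 4. 29a_4d and 29b_4d mice received 2% DSS and miR-29a or miR-29b, and were likewise sampled on day 4. Tail vein injections of miRNA loaded in sCA, a carbonate apatite nanoparticle, took place on days 1, 2 and 3, per the labels. The NC-miR_2d label gives these same injection days. This conflicts with its sampling on day 2, and the labels do not say which injections those mice had. Normal mice received neither DSS nor injections and their tissue was taken on day 0. DSS, the injections, the carrier, the day and the hour of collection therefore cannot be told apart in a comparison of the pool with normal, and no hour is given. The labels do not say whether the 2 libraries of a group came from separate mice, so the p-values measure the spread between libraries, which may be technical.

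DSS is a sulfated polysaccharide that damages the colonic epithelium when it is drunk, and mice given it develop colitis over several days. Several gene systems of the colon respond quickly to damage, to nucleic acids and to the hour of day. Interferon-stimulated genes encode antiviral effectors and are switched on through transcription factors that include STAT2 and IRF9 at interferon-stimulated response elements. In the circadian clock, BMAL1 (encoded by Arntl) with CLOCK or NPAS2 activates the Per, Cry, Nr1d and Dbp genes through E-boxes. The products of the Per, Cry and Nr1d genes repress the activators or their genes in turn. Sterol synthesis is driven by SREBP2 when cell cholesterol is low, and the absorptive colonocytes of the surface take up sodium, chloride and water.

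Each value is a log2 ratio to a baseline of its own gene, so levels cannot be compared between genes. Values below are given as differences from the mean of the 2 normal libraries, and the normal libraries of a gene therefore lie at equal distances on either side of 0. A gene is at the floor where its value is the lowest one and is shared by several libraries. Where both normal libraries lie at the floor, the true difference may be larger, and "at least" is written before it. In bulk tissue, fewer cells of a type and less RNA per cell cannot be told apart. Relative to normal replicate 2, the depth of the DSS libraries ran from 0.761 (NC-miR_4d replicate 1) to 1.17 (NC-miR_2d replicate 1), against 0.954 in normal replicate 1. The colonic identity of the tissue was clear from its markers, since 9 of 9 colonocyte markers and 6 of 6 goblet markers in the files lay above the floor in all 10 libraries, while Muc2 is not analysed here. A pair of DSS libraries stood apart in genes of other cells. In NC-miR_4d replicate 1 the squamous keratin gene Krt14 was 6.69 above normal, against -0.57 to 0.82 in the other 7 DSS libraries and 0.07 and -0.07 in the normal libraries. In NC-miR_2d replicate 1 the neutrophil gene S100a8 stood at 94 fragments, against 3 to 13 in the other 7 and 3 and 2 in the normal libraries. Fragments are the smallest whole numbers that give a gene's ratios between libraries, and they are not adjusted for depth. Of the other squamous markers, Krt4, Trp63, Dsg3 and Sprr3 were at the floor in all 10 libraries, and so were the neutrophil markers Mpo, Csf3r and Cxcr2.

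Pooled DSS differed from normal in 217 of 13051 features tested, 168 higher (1.29%) and 49 lower (0.375%), by limma with Benjamini-Hochberg adjustment over all features and a threshold of 0.05. This is 1.66% of the features, and 2097 had an unadjusted p under 0.05. For 213 of the 217 (1.63% of all features), each of the 8 DSS libraries also lay beyond both normal libraries on the same side. These 213, 165 higher (1.26%) and 48 lower (0.368%), are called shared changes here. The 4 others were Car1, Epyc, Apol7a and Slc2a5. Separation alone was common, since 896 features (6.87%) had all 8 DSS libraries above both normal libraries and 775 (5.94%) had them below, whatever the p. The shared rises had a median of 1.09 and the shared falls a median of -0.86 on the log2 scale, against a median of -0.01 over all features. At the edge of the threshold, Cyp4f14 (0.94, adjusted p = 0.0499) was inside and the sterol gene Mvd (0.66, adjusted p = 0.0513) was outside. The normal group limits these calls, since 28 shared changes were called without normal replicate 1 and 10 without normal replicate 2. Without 29a_4d replicate 1, 29a_4d replicate 2 or 29b_4d replicate 1 there were 119, 108 and 115. Without NC-miR_2d replicate 1 or NC-miR_4d replicate 1, the libraries that stood apart, there were 168 and 166.

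**Figure D1:**
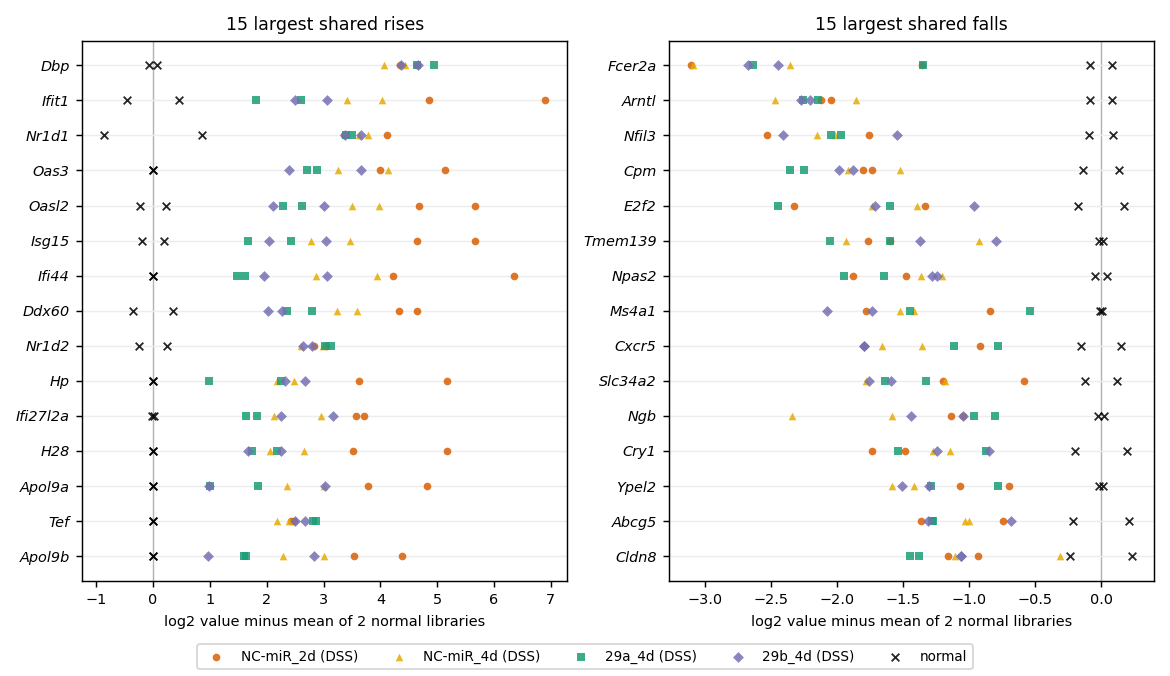
Values of every library for the 15 largest shared rises (left) and the 15 largest shared falls (right), as the log2 value minus the mean of the 2 normal libraries. Colours and shapes give the 4 DSS groups and crosses the normal libraries. All 8 DSS points of a gene lie beyond both crosses. The DSS points run from 4.06 to 4.95 for the clock gene Dbp and from 1.81 to 6.90 for the interferon gene Ifit1.

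Circadian clock genes changed in both directions in the DSS libraries, and Dbp had the largest rise of all features called. Of 33 clock genes tested in 2 lists, 17 were called, 12 higher and 5 lower, and all 17 were shared, beside 1.66% of all features called. These and the other gene lists were chosen with earlier results of these data known. A called share above that of all features is therefore no independent support. The clock lists were 17 core clock genes and repressors (7 higher, 3 lower, median 0.35) and 16 output genes (5 higher, 2 lower, median 0.45). With genes moving both ways, these medians say little of the sizes, and the median size without sign over the 17 calls was 1.54, against 0.15 over all features tested.

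Among the activators, Arntl (chr7:113207465-113314126, mm10), which encodes BMAL1, ran from -2.47 to -1.86 in the DSS libraries with a median of -2.18, against -0.08 and 0.08 in the normal libraries. Its pooled difference was -2.17 ± 0.15 (SE, 8 against 2 libraries; limma adjusted p = 0.000659). Npas2, the partner of BMAL1 that can stand in for CLOCK, ran from -1.95 to -1.20 with a median of -1.42, against 0.04 and -0.04 in normal. Its pooled difference was -1.51 ± 0.14 (limma adjusted p = 0.00313). The lowest normal library of both genes was well above the highest DSS library. Npas2 stood at 78 to 151 fragments in the DSS libraries and at 381 and 376 in the normal libraries. Clock itself was -0.43 ± 0.16 and did not pass (limma adjusted p = 0.233), with DSS libraries between -1.10 and -0.07.

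The repressors and outputs that BMAL1 activates lay on the opposite side. Dbp (chr7:45705088-45710203, mm10), a PAR bZIP transcription factor of the clock output, ran from 4.06 to 4.95 in the DSS libraries with a median of 4.54, against 0.06 and -0.06 in normal. Its pooled difference was 4.51 ± 0.16 or 22.8-fold (limma adjusted p = 1.78e-05). Gm129, the repressor gene now named Ciart or Chrono, lay at its floor in each normal library and 3.29 to 4.68 above it in the DSS libraries, so that it was at least 16.4-fold higher. It stood at 82 to 234 fragments in the 8 DSS libraries. The REV-ERB genes, which encode nuclear receptors that repress Arntl, rose as well. Nr1d1 ran from 3.36 to 4.12 with a median of 3.56, against 0.86 and -0.86 in normal, and Nr1d2 from 2.60 to 3.13 with a median of 2.91, against 0.25 and -0.25. The pooled differences were 3.60 ± 0.38 for Nr1d1 and 2.88 ± 0.16 for Nr1d2 (limma adjusted p = 0.00659 and 0.000228). The normal libraries differed more for Nr1d1 than for any other clock gene named here.

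The 3 Period genes, whose products repress BMAL1, were all higher. Per3 led with 1.84 ± 0.12, Per1 had 1.54 ± 0.19 and Per2 had 1.50 ± 0.16 (limma adjusted p = 0.000436, 0.011 and 0.00652). Their lowest DSS libraries stood at 1.47, 1.08 and 1.12, above the highest normal libraries at 0.06, 0.21 and 0.10. Cry1, which encodes a repressor of the same complex, went the other way, with DSS libraries from -1.73 to -0.85 and normal libraries at -0.20 and 0.20 (-1.27 ± 0.20, limma adjusted p = 0.0225). Among the outputs, the PAR bZIP gene Tef rose by 2.54 ± 0.10 (limma adjusted p = 3.29e-05) with DSS libraries between 2.18 and 2.86, against 0.00 in both normal libraries. Hlf, the remaining PAR bZIP gene, rose by 0.97 ± 0.17 (limma adjusted p = 0.0313), and Usp2 and Tspan4 by 1.38 and 0.95. Nfil3, a bZIP factor that competes with DBP for its sites, fell by 2.06 ± 0.25 (limma adjusted p = 0.011), with DSS libraries from -2.53 to -1.54. Bhlhe40, an E-box repressor, rose by 1.12, and Ypel2 fell by 1.21. The kinase genes Csnk1d (-0.11) and Csnk1e (-0.37) and Cry2 (0.40) did not pass.

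Per1 is also a target of the glucocorticoid receptor, and the glucocorticoid list shared this gene. It had 2 of 17 members called, both higher, beside 1.29% of all features called higher, while its median was 0.24. They were Per1, already counted among the clock genes, and the tyrosine aminotransferase gene Tat (1.26 ± 0.15). Fkbp5, a standard glucocorticoid target, had 0.83 ± 0.28 and did not pass (limma adjusted p = 0.203). Without normal replicate 1, 6 core clock genes and 2 outputs remained called, and without normal replicate 2, 5 and 2.

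Promoters of 5 genes are shown because they carry the motifs through which clock factors and interferon factors act, and because the genes are among the shared rises. Each runs from 250 bases before to 50 bases after the start of the gene on its own strand, from RefSeq (GRCm38.p6), with matches in capitals. The motifs searched on both strands were the E-box CACGTG, the D-box TTATGNAA, to which PAR bZIP factors and NFIL3 bind, and the core of the interferon-stimulated response element, a pair of GAAA repeats with any 2 bases between them. In Gm129 the capitals are 3 E-boxes, and in Per3 they are 2 D-boxes. In Isg15 they are 3 overlapping interferon-stimulated cores read as 1 run, and in Ifit1 and Ddx60 they are 2 such cores each.
Gm129 (Ciart), chr3:95882179-95882478, minus strand: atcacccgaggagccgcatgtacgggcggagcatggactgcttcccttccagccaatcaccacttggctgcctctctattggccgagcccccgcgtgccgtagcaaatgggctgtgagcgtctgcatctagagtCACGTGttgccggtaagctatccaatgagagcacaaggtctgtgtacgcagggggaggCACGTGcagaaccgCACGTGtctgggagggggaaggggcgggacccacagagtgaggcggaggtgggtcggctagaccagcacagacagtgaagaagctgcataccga
Per3, chr4:151044616-151044915, minus strand: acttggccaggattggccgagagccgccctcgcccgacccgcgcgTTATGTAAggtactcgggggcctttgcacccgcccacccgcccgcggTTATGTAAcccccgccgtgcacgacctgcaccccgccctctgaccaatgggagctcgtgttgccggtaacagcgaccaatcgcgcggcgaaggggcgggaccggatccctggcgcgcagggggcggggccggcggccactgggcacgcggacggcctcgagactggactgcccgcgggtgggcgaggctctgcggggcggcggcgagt
Isg15, chr4:156200769-156201068, minus strand: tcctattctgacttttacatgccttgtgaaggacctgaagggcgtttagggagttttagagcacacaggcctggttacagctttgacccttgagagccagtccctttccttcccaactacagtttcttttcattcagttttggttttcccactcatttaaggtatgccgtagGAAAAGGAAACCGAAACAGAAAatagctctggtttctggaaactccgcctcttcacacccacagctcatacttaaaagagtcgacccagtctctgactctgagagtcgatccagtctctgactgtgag
Ifit1, chr19:34640639-34640938, plus strand: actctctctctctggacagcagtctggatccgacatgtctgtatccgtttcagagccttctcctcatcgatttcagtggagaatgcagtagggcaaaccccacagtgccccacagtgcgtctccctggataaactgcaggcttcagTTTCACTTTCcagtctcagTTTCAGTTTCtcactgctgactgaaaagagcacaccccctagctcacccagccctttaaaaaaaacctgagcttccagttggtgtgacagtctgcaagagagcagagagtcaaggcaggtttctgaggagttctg
Ddx60, chr8:61927837-61928136, plus strand: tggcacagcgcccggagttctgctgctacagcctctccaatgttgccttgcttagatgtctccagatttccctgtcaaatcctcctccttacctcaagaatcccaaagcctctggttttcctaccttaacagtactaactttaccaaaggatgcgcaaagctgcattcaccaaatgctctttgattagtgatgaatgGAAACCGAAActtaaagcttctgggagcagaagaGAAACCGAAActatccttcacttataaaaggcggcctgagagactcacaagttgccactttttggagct

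Promoters are counted here by gene, and a gene counts if any of its annotated starts has the motif in its window. Genes with several starts therefore have more chances of a match. An E-box stood in 8 of 27 promoters of clock genes tested (29.6%), and in 11.6% of the 10317 promoters of tested features. Among the 15 promoters of shared clock changes it was 5 (33.3%). A D-box stood in 14 of 129 promoters of shared rises (10.9%), in 0 of 36 promoters of shared falls, and in 2.62% of promoters of tested features. Among clock genes only Per1 and Per3 held one. The interferon-stimulated core stood in 15 of 29 promoters of the type I interferon list (51.7%), in 18 of 129 promoters of shared rises (14.0%), in 0 of 36 of shared falls and in 3.79% of promoters of tested features. Over all 27025 promoters of the reference table, the shares were 3.99% for the interferon-stimulated core, 3.99% for the D-box and 8.09% for the E-box. Promoters of Dbp, Nr1d1, Npas2 and Oasl2 held none of the 3 motifs in this window. These matches are letters in a window and were not tested as sites.

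Genes of the type I interferon response held more shared rises than any other list. Of 39 tested, 21 were called, all higher and all shared, beside 1.29% of all features called higher, and the median of the 39 was 1.52, against -0.01 over all features. All 39 had a pooled difference above 0, and for 33 of them every DSS library lay above both normal libraries, beside 6.87% of all features. The rise was uneven over the DSS groups, with medians of the 39 genes of 3.02 in NC-miR_2d, 1.43 in NC-miR_4d, 0.66 in 29a_4d and 1.02 in 29b_4d.

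Isg15, a ubiquitin-like protein that is joined to other proteins, ran from 1.67 to 5.66 in the DSS libraries with a median of 2.91, against 0.19 and -0.19 in normal (3.22 ± 0.36, limma adjusted p = 0.00821). Ifit1, which binds viral RNA that lacks the host cap, ran from 1.81 to 6.90 with a median of 3.24, against 0.45 and -0.45 in normal (3.65 ± 0.50, limma adjusted p = 0.0154). In both genes the lowest DSS library was a 29a_4d library and the highest was NC-miR_2d replicate 1. In the oligoadenylate synthetase family genes Oasl2 and Oas3, NC-miR_2d replicate 1 was again the highest library, and 29b_4d replicate 1 was the lowest DSS library. Oasl2 ran from 2.12 to 5.66 (3.48 ± 0.31, limma adjusted p = 0.00298). Oas3 lay at its floor in each normal library and 2.39 to 5.14 above it in DSS libraries, at least 11.5-fold higher. Ifi44, also at the floor in both normal libraries, was at least 9.10-fold higher, and H28, the gene now named Ifi44l, was 6.30-fold higher.

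Sensors and regulators were higher too. Ddx60, a helicase that promotes RNA sensing, ran from 2.03 to 4.65 with a median of 3.01, against 0.35 and -0.35 in normal (3.16 ± 0.21, limma adjusted p = 0.000605). No other member of this list stayed called in all 10 fits with 1 library omitted. Zbp1, a sensor of Z-form nucleic acids, had 2.25 and Ifih1, which encodes the RNA sensor MDA5, had 0.96. The transcription factor genes Irf7 (1.92) and Irf9 (1.38) were called, and Stat2 (1.01) was not. Several well-known members missed the threshold at large pooled differences, among them Ifit3 at 3.15, Oas2 at 2.32, Usp18 at 2.28, Rsad2 at 1.79 and Mx1 at 1.16. Apol9a and Apol9b, at least 6.09-fold and at least 5.77-fold higher, are near-identical copies whose reads the authors' counting could split, so they count as 1 uncertain observation.

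NC-miR_2d had the highest group mean in 39 of 39 genes of this list, and 29a_4d had the lowest in 33. NC-miR_2d replicate 1, the library with high S100a8, was the highest library in all 39. The median of a neutrophil list over its 5 tested members was 1.87 in that library. It was 0.33 to 0.78 in the other DSS libraries and 0.00 in both normal libraries. Only these 5 of the 15 members found passed the filter on low values. A gene can pass that filter through 1 DSS group alone, so these medians are no independent support. Without this library 25 interferon genes were called and their median was 1.43. Of the 39 genes, 37 had an unadjusted p under 0.05 in the F test among the 4 DSS groups, beside 9.78% of all features, but none passed after adjustment (smallest adjusted p = 0.141). On day 4 alone, with 6 DSS libraries against 2, 12 members were called with a median of 1.05. The called count fell to 3 without normal replicate 1, 1 without normal replicate 2 and 13 without 29a_4d replicate 2, and came to 35 without NC-miR_2d replicate 2.

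The interferon-gamma response and antigen presentation list had fewer calls. Of 36 tested, 4 were called, all higher, beside 1.29% of all features called higher, with a median of 0.57. They were the interferon-inducible GTPase genes Gbp3 (1.74 ± 0.29) and Igtp (1.64 ± 0.30), and B2m (0.89 ± 0.13) and H2-K1 (0.78 ± 0.15), which encode the chains of the class I antigen-presenting molecule. B2m ran from 0.39 to 1.53 in the DSS libraries, against 0.01 and -0.01 in normal. None of the 4 was called in the 3 day 4 groups alone, and none without either normal library.

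**Figure D2:**
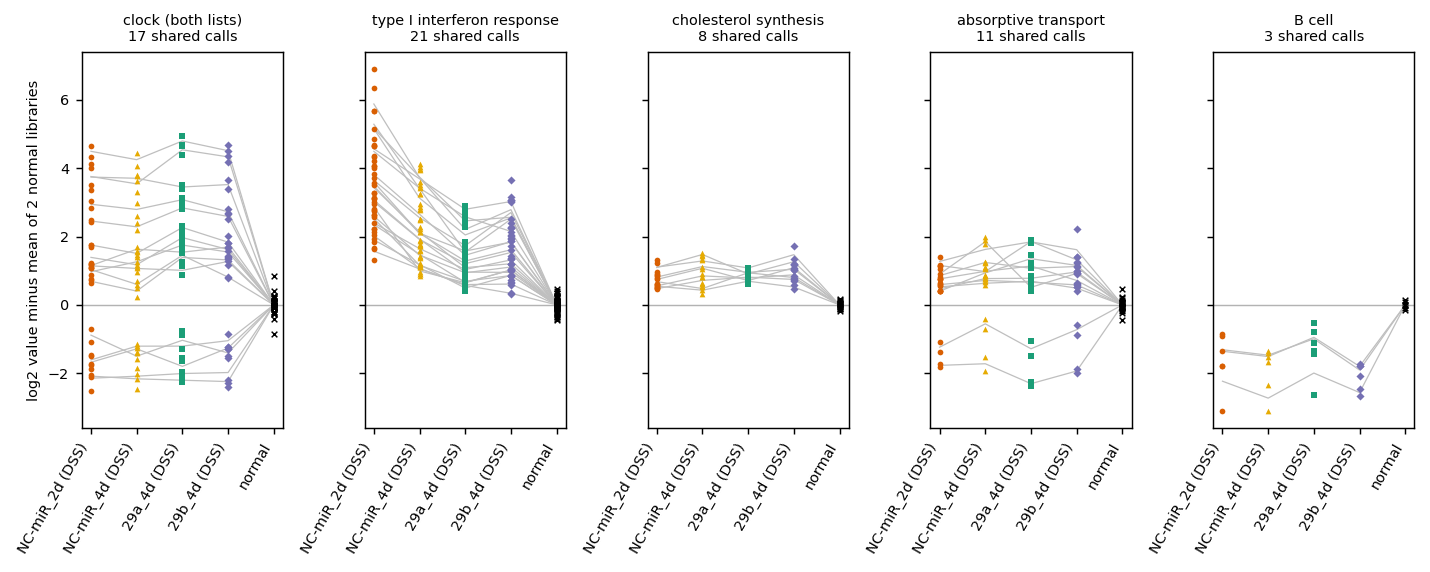
Values of every library for the shared changes in 5 sets of genes, as the log2 value minus the mean of the 2 normal libraries, with the 4 DSS groups from left and normal at the right. Grey lines join the group means of a gene. Group means of all 21 interferon genes are highest in NC-miR_2d, while 9 of the 17 clock genes are highest in 29a_4d, 5 in 29b_4d and 3 in NC-miR_2d. For the clock falls Arntl, Npas2, Cry1, Nfil3 and Ypel2, which are among the 17, the highest group mean is the smallest change.

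The sterol synthesis genes called were all higher. Of 24 tested, 8 were called, all higher and all shared, with a median of 0.64, beside 1.29% of all features called higher. For 16 of the 24 all DSS libraries lay above both normal libraries, beside 6.87% of all features. The calls ran through the pathway, with log2 differences of 0.69 in Hmgcs1, 1.18 in Idi1, 0.77 in Sqle, 1.23 in Lss, 0.90 in Cyp51 and 0.98 in Sc4mol.

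Idi1, which encodes isopentenyl-diphosphate isomerase, ran from 0.87 to 1.52 in the DSS libraries with a median of 1.22, against 0.09 and -0.09 in normal (1.18 ± 0.12, limma adjusted p = 0.00435). Lss, the cyclase that makes lanosterol, stood at 256 to 486 fragments in the DSS libraries and at 145 and 157 in normal, with values of 0.90 to 1.73 (1.23 ± 0.17, limma adjusted p = 0.0162). No normal library reached the lowest DSS library in either gene. Insig1 (1.20), which SREBP2 also drives, did not pass, and Tm7sf2 (-0.45) and Ebp (-0.19) lay below 0. The fatty acid synthesis list had a median of 0.15, and limma called 0 of its 13 members (2 at an unadjusted p under 0.05). Its largest difference with all DSS libraries beyond normal was Fasn, fatty acid synthase, at 0.61 ± 0.15 (limma adjusted p = 0.0927). Of the sterol genes, 4 had an unadjusted F test p under 0.05 among the DSS groups. Their called count was 0 without normal replicate 2, 1 without normal replicate 1, 3 without either 29a_4d library, and 4 without NC-miR_2d replicate 1 or either 29b_4d library.

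Most of the genes called for absorption in the surface colonocyte were higher. Of 30 tested, 10 were called higher and 2 lower, beside 1.29% and 0.375% of all features, with a median of 0.52, and 11 of the 12 were shared. The sodium pump subunit Atp1b1 (0.64 ± 0.11), the epithelial sodium channel subunit Scnn1a (0.74 ± 0.10), the chloride-bicarbonate exchanger Slc26a3 (0.96 ± 0.14), the colonic proton pump Atp12a (1.59 ± 0.30), the sodium-proton exchanger Slc9a2 (0.59 ± 0.11), the phosphate carrier Slc20a1 (0.90 ± 0.15) and the water channels Aqp8 (1.32 ± 0.21) and Aqp4 (1.05 ± 0.17) were all shared rises.

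Slc26a3 ran from 0.40 to 1.47 with a median of 0.98, against 0.03 and -0.03 in normal (limma adjusted p = 0.0193). Its group differences were 0.40 in NC-miR_2d, 0.94 in NC-miR_4d, 1.35 in 29a_4d and 1.16 in 29b_4d. Car1, a carbonic anhydrase of the colonocyte, was called at 1.32 ± 0.23 (limma adjusted p = 0.0302), but its lowest DSS library at 0.39 lay below normal replicate 1 at 0.46. Its partner Car4 was at 0.62 ± 0.14 and did not pass (limma adjusted p = 0.08). The 2 members that fell were Cpm, a membrane carboxypeptidase, and Trpm6, a magnesium channel. Cpm (chr10:117629500-117687352, mm10) ran from -2.36 to -1.52 with a median of -1.90, against -0.14 and 0.14 in normal (-1.93 ± 0.13, limma adjusted p = 0.000613). It was the only fall other than Arntl that was called in every fit that left out 1 library. Trpm6 fell by 0.95 ± 0.16. The called count of this list was 1 without normal replicate 2, 4 without normal replicate 1 or 29a_4d replicate 1, and 5 or 6 without 29a_4d replicate 2, NC-miR_2d replicate 1, 29b_4d replicate 1 or NC-miR_4d replicate 2.

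Further carriers and brush border genes outside the lists rose in all DSS libraries, and these were chosen after their values were seen. Slc10a2 (chr8:5083219-5105351, mm10), the sodium-dependent bile acid transporter, ran from 1.54 to 2.28 and stood at 203 to 412 fragments in the DSS libraries, against 95 and 81 in normal (1.82 ± 0.18, limma adjusted p = 0.00435). Slc36a1, a proton-coupled amino acid carrier, rose by 1.71 ± 0.18, Slc13a2, a carrier of dicarboxylates, by 1.07 ± 0.20 and Slc6a4, the serotonin transporter, by 0.93 ± 0.14. The butyrophilin-like genes Btnl1 (1.22 ± 0.16) and Btnl5 (1.64 ± 0.21), expressed by gut epithelium, rose as well. Among metabolic enzymes, hexokinase 2 (Hk2) rose by 1.02 ± 0.13 and fatty acid 2-hydroxylase (Fa2h) by 1.17 ± 0.10. The zinc carrier Slc39a4 fell by 0.68 ± 0.11 and the sterol exporter subunit Abcg5 by 1.09 ± 0.21. The phosphate carrier Slc34a2 fell by 1.39 ± 0.21, with 94 to 268 fragments in the DSS libraries and 372 and 462 in normal. Cldn8, a claudin that limits sodium leak between cells, fell by 1.06 ± 0.21 (limma adjusted p = 0.0495), and its highest DSS library, NC-miR_4d replicate 1 at -0.31, was close to normal replicate 2 at -0.24.

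The goblet cell, mitosis and crypt lists had no calls, and with 1.66% of all features called, lists of this size say little by their counts. The goblet cell list had 0 of 13 called by limma and a median of 0.45. In it, 7 genes had an unadjusted p under 0.05, beside 2097 of the 13051 features tested, and 7 had every DSS library above both normal libraries, beside 6.87% of all features. Spdef, a transcription factor of goblet cells, was at 0.76 ± 0.19 and the mucus protein Fcgbp at 0.55 ± 0.12 (limma adjusted p = 0.0956 and 0.0771). The mitosis and DNA replication list had a median of -0.23, with 0 of 26 called by limma and 0 at an unadjusted p under 0.05. Crypt stem cell genes had 0 of 15 called and a median of -0.08.

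The B cell genes called were all lower in the DSS libraries. Of 20 tested, 3 were called, all lower and shared, beside 0.375% of all features called lower, with a median of -1.38. For 16 of the 20 all 8 DSS libraries lay below both normal libraries, beside 5.94% of all features, and for 19 the unadjusted p was under 0.05. Those called were Fcer2a, the low-affinity IgE receptor CD23, Ms4a1, which encodes CD20, and Cxcr5, the chemokine receptor that guides B cells into follicles.

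Fcer2a ran from -3.11 to -1.35 with a median of -2.54, against -0.09 and 0.09 in normal (-2.38 ± 0.46, limma adjusted p = 0.0485). Ms4a1 stood at 51 to 121 fragments in the DSS libraries and at 215 and 228 in the normal libraries (-1.42 ± 0.28, limma adjusted p = 0.0496). Cxcr5 was at the floor in 3 DSS libraries and had 23 to 39 fragments in the other 5, against 82 and 70 in normal (-1.40 ± 0.22, limma adjusted p = 0.0224). In all 3 the groups did not overlap, and the p lay close to the threshold for 2 of them. The B cell receptor genes Cd79a (-1.68) and Cd79b (-1.30) and the complement receptor gene Cr2 (-1.47) did not pass (limma adjusted p = 0.0969, 0.11 and 0.0866). Plasma cell genes had 0 of 7 called and a median of -0.72. Blnk, an adaptor of the B cell receptor, lay above normal in all DSS libraries at 0.52 and did not pass. The B cell calls numbered 0 without either normal library, 29a_4d replicate 2 or either 29b_4d library, 1 without NC-miR_4d replicate 2 and 12 without NC-miR_2d replicate 2.

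In the lists of cytokine, chemokine and antimicrobial genes, only the chemokine gene Ccl8 and the antimicrobial genes Pla2g2a and Saa1 were called, all higher. Of 25 cytokine and chemokine genes tested, 1 was called, a share near the 1.66% of all features, and Tnf, Il6 and Cxcl1 did not pass the filter on low values, like Reg3g among the antimicrobial genes. It was Ccl8, a chemokine for monocytes, with 99 to 357 fragments in the DSS libraries and 49 and 49 in the normal libraries. Its values ran from 1.01 to 2.91 with a median of 2.10 (2.00 ± 0.24, limma adjusted p = 0.011). Il1b, the interleukin 1 beta gene, was at 0.16 ± 0.30 (limma adjusted p = 0.843) and its DSS libraries lay on both sides of normal. Among antimicrobial genes 2 of 17 were called, both higher, beside 1.29% of all features called higher. They were Pla2g2a, a secreted phospholipase, at 2.07 ± 0.31 and Saa1, serum amyloid A, at 0.68 ± 0.11. Of the 17, 12 had a pooled difference above 0 and 5 below 0. S100a8 was at 1.96 ± 0.75 and did not pass (limma adjusted p = 0.254). It stood at 94 fragments in NC-miR_2d replicate 1, at 3 to 13 in the other DSS libraries and at 3 and 2 in normal, so that 1 DSS library had as many fragments as normal replicate 1. Hp, haptoglobin, an acute-phase protein, lay at its floor in each normal library and was at least 6.55-fold higher, with 18 to 442 fragments in the DSS libraries, the highest again in NC-miR_2d replicate 1.

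Among the genes of immune cells outside the lists, chosen after their values were seen, Xcl1, a chemokine of lymphocytes, rose by 1.51 ± 0.23 but stood at only 5 to 24 fragments in the DSS libraries and 3 and 3 in normal. Cd7, a T cell surface protein, rose by 1.06 ± 0.17, with 17 to 25 fragments against 11 and 11. The complement genes C2 (1.28 ± 0.25) and C4b (1.35 ± 0.20) rose. The lists for T cells (14 tested), monocytes and macrophages (22), endothelium (13), smooth muscle (13), adipocytes (10), enteric neurons and glia (10), and fibroblasts and matrix (25) had 0 called by limma, with 6, 7, 2, 1, 1, 0 and 2 at an unadjusted p under 0.05. The collagen gene Col1a1 was at 0.18 ± 0.16. Among stress and metabolic lists, 1 of 20 NF-kB feedback genes and 1 of 29 xenobiotic genes were called, beside 1.66% of all features. They were Tnip3, an inhibitor of the NF-kB pathway (0.85 ± 0.16), and Ugt1a1 (1.10 ± 0.12), whose transcripts share exons with other Ugt1a genes. The list medians were 0.11 and 0.19, and a single call in lists of this size says little of the list. The unfolded protein response (17 tested), heat shock (15) and immediate early (15) lists had 0 called by limma, with 3, 2 and 2 at an unadjusted p under 0.05.

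The lists were read again without each library that stood apart. Without NC-miR_2d replicate 1, the called members numbered 9 of the core clock, 8 of the clock output, 4 of the sterol, 5 of the absorptive, 4 of the B cell and 10 of the interferon-gamma list. Without NC-miR_4d replicate 1, they numbered 9, 6, 6, 8 and 2, with 19 of the type I interferon and 3 of the interferon-gamma list. The clock genes Dbp, Tef, Gm129, Nr1d1, Nr1d2, Per3 and Arntl were called in every fit that omitted 1 library.

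**Figure D3:**
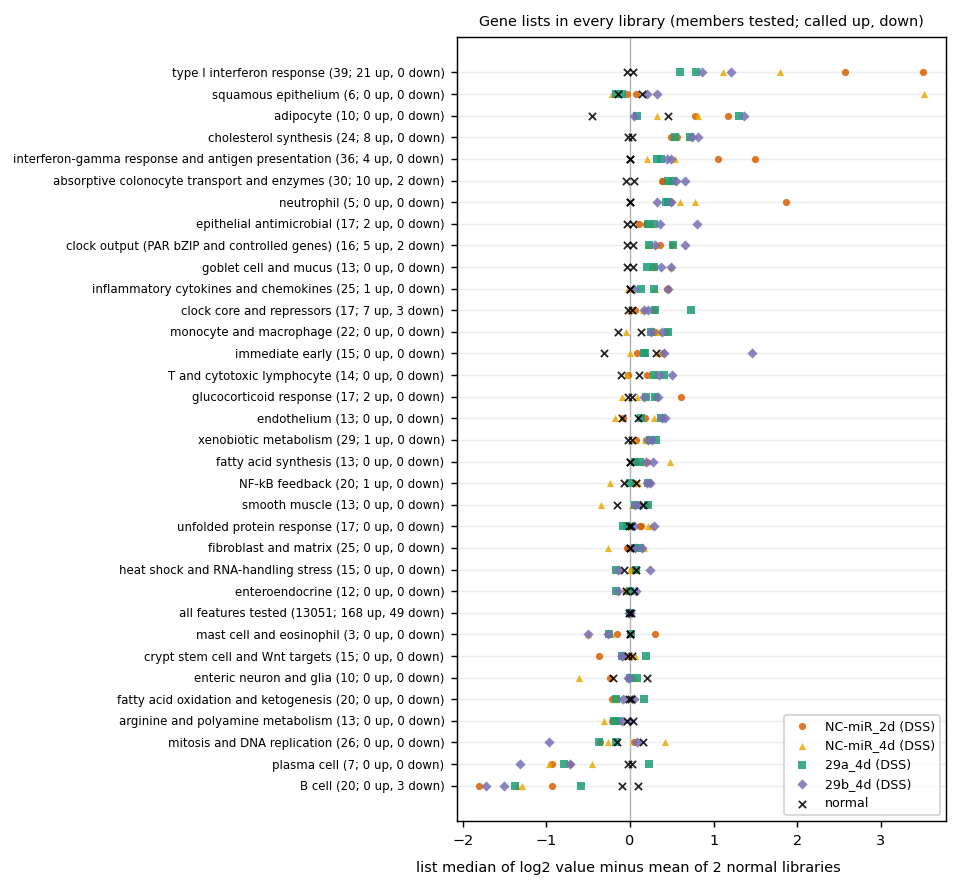
Median over the tested members of each gene list in every library, as the log2 value minus the mean of the 2 normal libraries, with the number tested and the number called higher and lower beside the list name. DSS groups have colours and normal libraries are crosses. The interferon list is above 0 and the B cell list below 0 in all 8 DSS libraries, and the squamous list is high in NC-miR_4d replicate 1 alone, at 3.52.

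The size of a shared change over the 4 DSS groups was set beside its pooled size. Of the 213 shared changes, 84 had an unadjusted p under 0.05 in the F test among the DSS groups and 129 did not, while 9.78% of all features did. After adjustment the F test called 1 feature (0.00766%), Mir29c, which was no shared change. The range between the highest and lowest group had a median of 0.46 over the 213, or 50.3% of the pooled difference. For the 17 clock changes the median range was 0.55, or 35.7% of the pooled difference, and for the 21 interferon changes it was 1.91, or 102%. The F test p was under 0.05 in 9 of the 17 clock changes (52.9%) and in all 21 interferon changes, against 39.4% of all shared changes. The clock changes were therefore even over the DSS groups only relative to their size, and their range was above the 0.46 of all shared changes and the 0.36 of the 8 sterol changes. It was widest in Gm129 (1.00), Tspan4 (0.98) and Hlf (0.85).

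Arntl had 1 of the smallest relative ranges, with group differences of -2.08 in NC-miR_2d, -2.16 in NC-miR_4d, -2.20 in 29a_4d and -2.24 in 29b_4d. Nr1d1 had 3.74, 3.70, 3.45 and 3.52 in the same order of groups. In Isg15 they were 5.15, 3.12, 2.05 and 2.54. The 4 group contrasts share the 2 normal libraries, so their agreement on a gene is not independent. In these contrasts, 171 features (1.31%) were called in NC-miR_2d, 54 (0.414%) in NC-miR_4d, 50 (0.383%) in 29a_4d and 60 (0.46%) in 29b_4d, and 20 of the shared changes were called in all 4. Of the 20, 10 belonged to the clock lists, namely Dbp, Gm129, Nr1d1, Nr1d2, Tef, Per2, Per3, Npas2, Nfil3 and Arntl. The others included Cpm, Slc10a2, Slc36a1, Fa2h, Ddx60, Rasd2, Tns4, Dio3os and 0610005C13Rik. Dio3os was at the floor in 5 DSS libraries, so its spread there is small. Of the shared changes, 70 were called in no single group and rest on the pool of 8.

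**Figure D4:**
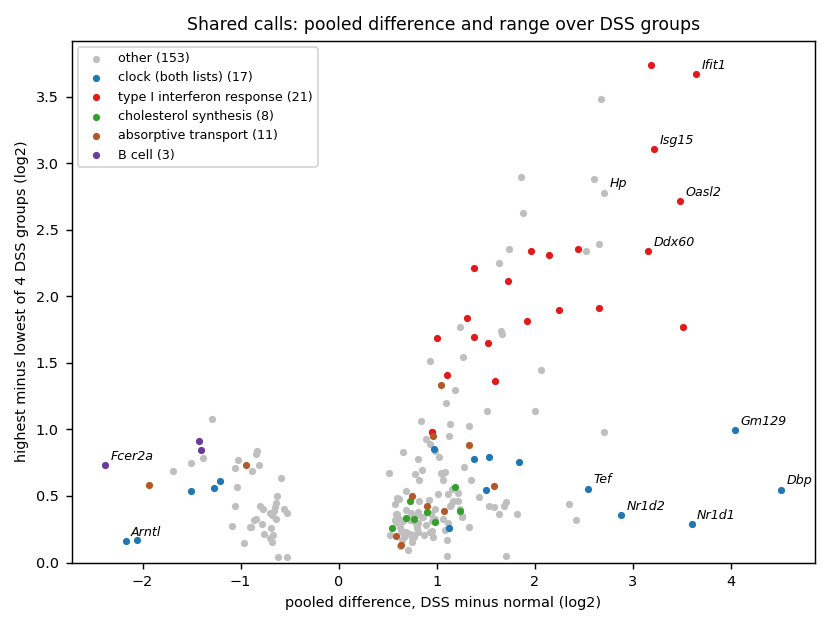
The 213 shared changes by pooled difference (x axis, log2, DSS minus normal) and by the difference between the highest and the lowest of the 4 DSS groups (y axis, log2), coloured by gene list. Dbp lies at a pooled difference of 4.51 and a range of 0.55, and Ifit1 at 3.65 and 3.67.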

How the data were processed

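RNA of the colorectum was sequenced in 10 libraries, 2 per group, from stranded mRNA libraries, per the labels' protocols. The submitters' processing notes name TopHat2 2.0.13, Bowtie2 2.2.3, SAMtools 0.1.19, Cuffnorm 2.2.1 and the mouse build mm10, with no settings. The authors deposited 1 column, named FPKM per the file headers, whose values behave as log2 ratios against a gene-specific baseline, so neither levels nor read counts are given. The most frequent value of each library, held by 9322 features, was subtracted as a constant. A feature was at the floor where 2 or more libraries shared its lowest value (within 2e-05).

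Testing covered the 13051 of 23284 features that lay above the floor in both members of some group. In R 4.3.3, limma 3.58.1 fitted 5 group means, and the contrast was the mean of the 4 DSS groups minus normal, with 5 residual and 3.26 prior degrees of freedom. Tests were 2-sided and adjusted by the Benjamini-Hochberg method, with calls under 0.05. Errors beside a difference are limma standard errors, with a median of 0.14. The fit was tested on simulated data. Depth and whole fragments were read from ratios between libraries that fall on fixed steps, for 6383 features. Genes at the floor in both normal libraries have little spread there, so their p may be too small. The same limit applies to falls with several DSS libraries at the floor, such as Cxcr5 and Dio3os.

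Promoters came from RefSeq (GRCm38.p6) and gene positions from GENCODE (GRCm38, the assembly of mm10). The members and the 33 gene lists (661 of 677 genes found, 559 tested) were chosen with earlier results of these data known. Named genes were the 15 largest shared rises and falls, leaving out provisional symbols, up to 4 members of smallest p per list and a fixed set. Other genes named were chosen after their values were seen.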

Additional observations from a re-analysis of the deposited data

Results flagged for a closer look

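Of 58 genes checked over the 8 DSS libraries, 2 had 1 library far from the others by Dixon's criterion. In Cldn8 the highest library, NC-miR_4d replicate 1, stood at -0.31 and the next at -0.93, against 0.24 and -0.24 in the normal libraries. In Clock the lowest library, 29b_4d replicate 2, stood at -1.10 and the next at -0.52, against -0.07 and 0.07 in the normal libraries. Chance flags about 1 in 20 groups of values. NC-miR_4d replicate 1 is also the library with high squamous keratin genes, and the part of these cells in the Cldn8 value was not tested.

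Mir29c was the only feature that passed the F test among the 4 DSS groups after adjustment (adjusted p = 0.00864). Its differences from normal were -8.83 or lower in NC-miR_2d, where both libraries were at the floor, -0.33 in NC-miR_4d, 1.43 in 29a_4d and -0.57 in 29b_4d. Its 2 normal libraries lay at -0.71 and 0.71. The pooled difference of -2.07 did not pass (limma adjusted p = 0.0894). By the same test, 0 features passed when only those above the floor in all 10 libraries were used.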

How the results depend on the processing

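The pooled count of 217 calls and the 213 shared changes stayed within 1.5 times under 10 of 12 other settings. Signs were followed only for the genes named by the rule above, and none of those called in the pooled comparison changed sign. The uncalled Bub1, Kit, Mcpt1, Des and Prph did under at least 1 setting. Without moderation of the variances they were 19 and 18, and with a log2 difference of at least 1 required they were 111 and 109. Leaving out 1 library gave 10 to 344 calls and 10 to 316 shared changes, fewest without normal replicate 2 (10) and normal replicate 1 (28), and most without NC-miR_2d replicate 2. The 10 shared changes called in every such fit were Dbp, Tef, Gm129, Nr1d2, Nr1d1, Per3, Ddx60, Cpm, 0610005C13Rik and Arntl. The F test among DSS groups called 0 features with those above the floor in all libraries, 2 after quantile normalization, 3 without moderation, and 0 to 97 without 1 library. Same-numbered libraries showed little common deviation over 10 pairs of groups (correlations -0.24 to 0.11), and the main fit did not pair them. These correlations run over all tested features and cannot exclude a pairing that affects few genes. With the replicate block 169 shared changes were called, 5 sterol genes and 1 B cell gene.

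Called members changed by setting as follows. In a fit of 2 groups the type I interferon list had 3 and the interferon-gamma list 0. With no filter on low values the interferon-gamma list had 1 and the B cell list 1, and with values as deposited the B cell list had 1. After quantile normalization the interferon-gamma list had 8 and the sterol list 4. Without moderation the counts were 1 (type I interferon), 0 (interferon-gamma), 4 (core clock), 2 (clock output), 1 (sterol), 3 (absorptive) and 0 (B cell). With the NC-miR groups alone they were 10 (interferon-gamma), 4 (sterol) and 7 (absorptive). With the day 4 groups alone they were 12 (type I interferon), 0 (interferon-gamma) and 1 (B cell). With a log2 difference of at least 1 they were 2 (interferon-gamma), 2 (sterol) and 6 (absorptive). Without 1 library the ranges were 1 to 35 (type I interferon), 0 to 17 (interferon-gamma), 5 to 10 (core clock), 2 to 9 (clock output), 0 to 9 (sterol), 1 to 11 (absorptive) and 0 to 12 (B cell).

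List medians moved as follows. The type I interferon median was 1.14 after quantile normalization, 2.17 in the NC-miR groups and 1.05 on day 4. The interferon-gamma median was 0.89 in the NC-miR groups. The core clock median was 0.064 with features above the floor in all libraries, against 0.35 as reported. The absorptive median was 0.46 with no filter and with that filter, 0.45 in the NC-miR groups and 0.58 on day 4, and it ran from 0.39 to 0.61 without 1 library. The cause was not tested. With 2 normal libraries and no read counts, the spread of normal values limits what can be called.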

Other observations

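Several shared changes lay outside the lists described. The ceramidase genes Acer2 and Acer1 rose by 1.09 ± 0.21 and 0.73 on the log2 scale, and Sphk2, sphingosine kinase, by 1.12. Sphk2 (chr7:45709467-45718002, minus strand) overlaps the end of Dbp (chr7:45705088-45710203, plus strand), the gene with the largest rise. Whether reads of Dbp entered the Sphk2 value was not tested. The mucin glycosyltransferase gene Gcnt3 rose by 0.71 ± 0.13 and B3gnt7 by 0.98 ± 0.15. Plin2, which coats lipid droplets, rose by 0.80 ± 0.13 and Dgat2, which makes triglyceride, by 0.62 ± 0.12. Upp1, uridine phosphorylase, rose by 1.59 ± 0.23 with DSS libraries from 1.14 to 1.97, against 0.43 and -0.43 in the normal libraries. Lifr, the receptor gene for leukemia inhibitory factor, fell by 0.89 ± 0.12, and Ier5 fell by 0.87 ± 0.16. These genes were chosen singly after their values were seen and stand for no group.

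The library with the highest value among the 8 DSS libraries was NC-miR_2d replicate 1 for 64 of the 165 shared rises and NC-miR_2d replicate 2 for 2 of them. For the 48 shared falls, the lowest library was NC-miR_2d replicate 1 for 9 and NC-miR_2d replicate 2 for 9. The adipocyte list had 0 of 10 called by limma, 1 at an unadjusted p under 0.05, and its median ran from 0.05 to 1.36 in the DSS libraries, against -0.46 and 0.46 in the normal libraries.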
